A study of Mus musculus with 8 samples.

Results

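A set of 9 transporter genes that carry amino acids across the plasma membrane were followed through early B cell development with and without UPF1. The genes were Slc7a5, Slc3a2, Slc7a1, Slc7a11, Slc1a4, Slc1a5, Slc38a1, Slc38a2 and Slc6a9. They were taken by symbol and made up 9 of the 27179 genes counted, and all 9 passed the filter on low counts. Early large pre-B (early LPre-B) and small pre-B (sPre-B) cells had been sorted from the bone marrow of adult, age-matched C57BL/6 mice, and total RNA was sequenced after removal of ribosomal RNA. The control mice (Ctrl/Igh B1-8hi) were Upf1 Flox/Flox with intact Mb1 +/+, and the conditional knockout mice (cKO/Igh B1-8hi) were Upf1 Flox/Flox with Mb1 Cre/+. Both carried the Igh B1-8hi/+ knock-in. Each of the 4 groups, 2 genotypes at 2 stages, had 2 libraries, for 8 libraries in all. Every mouse therefore had floxed Upf1 and 1 rearranged heavy chain allele, which spares the cell its own heavy chain recombination. Only the cKO mice had the Cre knock-in, which sits in the Cd79a (Mb1) gene and acts from the pro-B stage on. Loss of Upf1, presence of Cre and the interrupted Cd79a allele thus cannot be told apart. The 2 libraries of each Ctrl group came from different mice, since 1 was from male and 1 from female cells by Xist and Y-linked counts. For the cKO groups the labels do not name the animals, and both libraries were from female cells at each stage.

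UPF1 is an RNA helicase that is central to nonsense-mediated decay, which removes transcripts with premature stop codons and some normal transcripts, among them several of the amino acid stress response. In that response, phosphorylation of eIF2α slows translation while the transcription factor ATF4 is made. ATF4 binds sites called CAREs near its targets, and amino acid transporters are well known among them. Slc7a5 encodes LAT1, which exchanges large neutral amino acids such as leucine and works as a heterodimer with the heavy chain encoded by Slc3a2 (CD98). Slc7a11 encodes xCT, the cystine-glutamate exchanger, which uses the same heavy chain. Slc7a1 encodes CAT1, a carrier of arginine and lysine. Slc1a4 (ASCT1) and Slc1a5 (ASCT2) exchange small neutral amino acids, glutamine among them for ASCT2. Slc38a1 (SNAT1) and Slc38a2 (SNAT2) take up glutamine and alanine with sodium, and Slc6a9 (GLYT1) takes up glycine. LPre-B cells divide rapidly, and sPre-B cells are small and have left the cell cycle.

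The libraries held between 68516857 and 160426338 counts, so that a floor of 3 counts lay between 0.0187 and 0.0438 CPM (counts scaled to a common library size). Levels are in CPM, and Log2FC is the fitted log2 fold change. The adjusted P is from edgeR's quasi-likelihood test, adjusted over all 17700 genes tested, and a gene was called at an adjusted P under 0.05. The count over the whole Upf1 gene was not lower in cKO libraries, at 237 and 213 CPM in Ctrl and 245 and 258 in cKO at the early LPre-B stage, and 186 and 198 in Ctrl against 282 and 293 in cKO at the sPre-B stage, where it was called higher (Log2FC 0.585, adjusted P = 0.00245). Only part of the gene is floxed, so this count does not check the deletion. Cd79a was lower in the cKO libraries at both stages (Log2FC −1.77, adjusted P = 0.000157, and −2.08, adjusted P = 7.05e-05). The direction goes with the 1 interrupted Cd79a allele of the cKO mice, and the size of the fall was not accounted for. The stage labels were checked with pre-B markers in Ctrl cells. The surrogate light chain gene Igll1 was lower in sPre-B cells (Log2FC −5.56, adjusted P = 6.87e-07), and Cd2, whose product had been used in the sort, was higher (4.93, adjusted P = 3.85e-07). The pre-B markers also moved with genotype. Of 14, 7 fell in cKO early LPre-B cells, among them Dntt (−3.31, adjusted P = 3.79e-05), Rag1 (−2.74, adjusted P = 0.000148) and Cd79a, beside 16.9% of all tested genes. In sPre-B cells 4 fell and 2 rose, beside 14.9% and 19.8%. Their sum was 3894 to 4052 CPM in Ctrl and 2419 to 2541 CPM in cKO early LPre-B cells, and 9812 to 10040 against 6790 to 6837 CPM in sPre-B cells. The comparisons between genotypes are thus within a sorted gate, and the part of a shift in stage within it was not tested. The male libraries were those of Ctrl replicate 2 at both stages, and the other 6 were female.

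By the RefSeq annotation of GRCm38.p6 (mm10), Slc7a5 lies at chr8:121881146-121907686 and Slc7a1 at chr5:148327410-148399904, both on the minus strand. Slc3a2 (chr19:8706882-8723369), Slc1a4 (chr11:20302180-20332713) and Slc7a11 (chr3:50364936-50499087) are also on the minus strand. The paralogs Slc38a1 (chr15:96571418-96643438) and Slc38a2 (chr15:96687392-96699728) lie close together on that strand. Slc1a5 (chr7:16781334-16798274) and Slc6a9 (chr4:117835258-117869305) are on the plus strand. Reads were counted without regard to strand, and 1986 exonic bases of Slc6a9 overlap exons of Gm17114, Ccdc24 and B4galt2 on the opposite strand. Gm17114, a noncoding gene of GENCODE, was not matched to a row of the counts and has no level here. Of these genes, looked up for this overlap, Ccdc24 was at 0.0568 to 0.333 CPM in all libraries and was not called in any comparison, and B4galt2 stayed under the levels of Slc6a9 in cKO cells. In Ctrl cells B4galt2, at 0.532 to 0.705 CPM, was above Slc6a9, and it was called lower in sPre-B than in early LPre-B cells of cKO mice (Log2FC −1.15, adjusted P = 0.0321). Transcript features linked with nonsense-mediated decay were also looked up. In the GENCODE M21 principal transcripts, none of the 9 genes had an exon junction over 50 bases after the stop codon, as against 0.385% of 14278 tested genes. An ATG upstream of the coding sequence was found in 5 of the 9, namely Slc38a1 with 8, Slc6a9 with 3, and Slc1a5, Slc7a1 and Slc7a11 with 1 each, and in 51.8% of all tested genes. Only Slc6a9 had an annotated nonsense-mediated decay transcript, a feature of 27.2% of tested genes.

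RefSeq promoters, 250 bases before to 50 after each start, were given for 6 of the 9 genes. CARE letters (TGATGNAA, or TTNCATCA on the other strand) were found in the promoters of Slc1a4 and Slc7a11, and in 3.97% of all 32851 promoters. These 2 are shown because they hold the same letters while the genes behaved differently. The windows run from 100 bases before the start to 20 bases from it, on the minus strand, at chr11:20332694-20332813 for Slc1a4 and chr3:50443594-50443713 for Slc7a11, with the CARE letters in capitals.
Slc1a4: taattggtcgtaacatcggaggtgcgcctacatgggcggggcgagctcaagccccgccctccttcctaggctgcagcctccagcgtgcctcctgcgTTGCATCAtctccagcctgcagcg
Slc7a11: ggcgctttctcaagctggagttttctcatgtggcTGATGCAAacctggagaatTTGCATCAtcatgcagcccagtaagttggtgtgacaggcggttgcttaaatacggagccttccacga
The single match in Slc1a4 begins 4 bases before the start. The 2 matches in Slc7a11 begin 66 and 47 bases before it and are in opposite orientation. The start used for Slc7a11 is that of the promoter table and lies inside the gene span printed above, not at its upstream end. No CARE letters were found in the windows of Slc3a2, Slc7a1, Slc38a2 and Slc6a9. The E-box CACGTG, held by 7.15% of all promoters and by 8.09% of all genes, was in none of the 6 genes' windows. These matches are letters in a window and say nothing of binding.

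Per kilobase of annotated exon, the levels of the 9 genes spanned more than 3 orders of magnitude in Ctrl early LPre-B cells. Slc1a5 led with 197 ± 24.8 CPM per kb (SD, n = 2), followed by Slc38a2 with 93.4 ± 5.27 and Slc38a1 with 30.4 ± 0.909. Slc7a5 (20.7 ± 4.32), Slc3a2 (18.7 ± 2.87) and Slc7a1 (14.6 ± 1.24) came next. Slc7a5 and Slc3a2, whose products pair, did not differ beyond their spread at the exon lengths used, 3517 and 3022 bases. The principal transcript of Slc3a2 has only 1819 bases, and by that length Slc3a2 would lie above Slc7a5 here and in cKO sPre-B cells. The place of Slc38a1 rests on the length too (10738 bases of exon, 7266 in the principal transcript). Slc1a4 had 0.505 ± 0.143 CPM per kb, and Slc7a11 (0.0866 ± 0.0230) and Slc6a9 (0.0730 ± 0.0199) were the lowest and overlapped. The order was otherwise one of levels that did not overlap between neighbours. In cKO early LPre-B cells Slc7a5 ranked behind Slc1a5 and Slc38a2, with 65.2 ± 1.17 CPM per kb, above Slc3a2 (36.9 ± 2.41), Slc7a1 (28.4 ± 1.55) and Slc38a1 (24.5 ± 0.244). In Ctrl sPre-B cells Slc3a2 (10.1 ± 0.964) was above Slc7a5 (2.88 ± 0.774) and Slc7a1 (2.25 ± 0.406), of which the last 2 overlapped. By exon length, Slc7a5 (15.5 ± 0.267) was again above Slc3a2 (13.1 ± 0.262) in cKO sPre-B cells. The sum of all 9 genes was 1496 and 1594 CPM in Ctrl and 1825 and 1839 CPM in cKO early LPre-B cells. Slc1a5, Slc38a2 and Slc38a1 made up most of it, so the sum hides the genes that changed by the largest factors. In sPre-B cells the sums overlapped, with 1709 and 2013 CPM in Ctrl and 1849 and 1935 CPM in cKO.

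**Figure D1:**
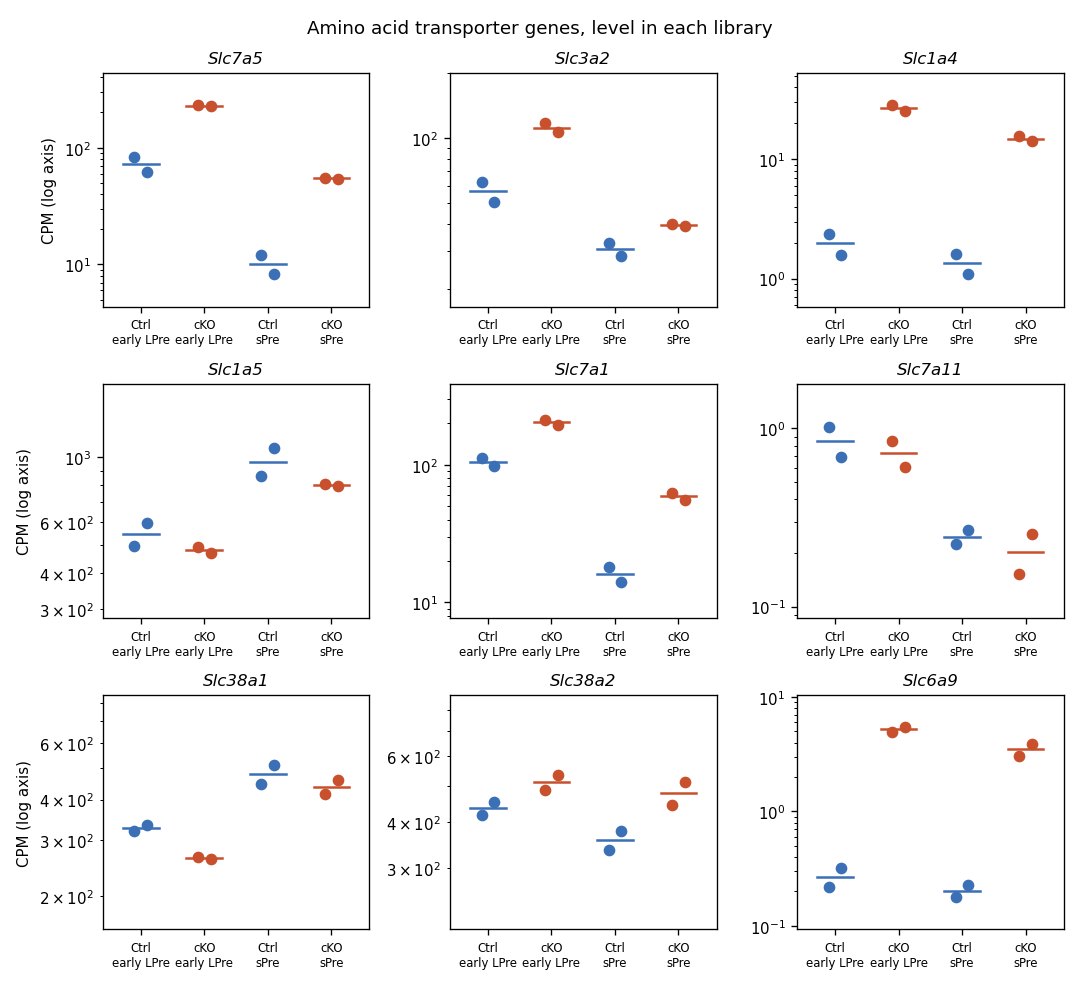
Level of each of the 9 transporter genes in every library, in CPM on log axes with a range of their own for each gene; points are libraries, lines are the means of the 2 libraries of a group, blue is Ctrl and orange is cKO. Slc7a5, Slc3a2, Slc1a4, Slc7a1, Slc38a2 and Slc6a9 were higher in both cKO libraries than in both Ctrl libraries at each stage, while Slc7a11 overlapped at each stage.

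The first question was which transporter genes differed between cKO and Ctrl cells at the same stage. In early LPre-B cells 5 of the 9 rose, beside 14.5% of all tested genes, and 0 fell by edgeR with no replicate block, beside 16.9%. At an unadjusted p under 0.05, in DESeq2 and with the replicate block (adjusted P = 0.0385), 1 was lower (Slc38a1). In sPre-B cells 6 of the 9 rose, beside 19.8%, and 0 fell by edgeR, DESeq2 or an unadjusted p under 0.05, beside 14.9%. The median Log2FC of the 9 was 0.957 in early LPre-B and 0.42 in sPre-B cells, as against −0.063 and 0.013 over all genes tested. Slc7a5, Slc3a2, Slc1a4, Slc7a1 and Slc6a9 were called at both stages, and Slc38a2 was called in sPre-B cells. Without both male libraries each Ctrl group had 1 library, so the spread came from the cKO groups alone. The Log2FC of Slc3a2 in sPre-B cells was then 0.24, against 0.37 with all libraries. In sorted cells measured in bulk, a change in the number of cells of one type and a change in RNA per cell cannot be told apart.

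Slc7a5 stood at 83.6 and 62.1 CPM in the Ctrl early LPre-B libraries and at 232 and 226 CPM in the cKO ones. In sPre-B cells it stood at 12.1 and 8.21 CPM in Ctrl and at 55.3 and 53.9 CPM in cKO. Both cKO libraries were thus above both Ctrl libraries at each stage, by 3.15-fold (Log2FC 1.65 ± 0.18 SE, adjusted P = 0.000382) and 5.38-fold (2.43 ± 0.19, adjusted P = 7.01e-05). Its partner Slc3a2 had 62.7 and 50.5 CPM in Ctrl and 117 and 106 CPM in cKO early LPre-B cells. The rise of Slc3a2 was 1.97-fold at this stage (Log2FC 0.98 ± 0.12, adjusted P = 0.000653). In sPre-B cells Slc3a2 had 32.6 and 28.5 CPM in Ctrl and 40.2 and 39.1 CPM in cKO, a rise of 1.30-fold (0.37 ± 0.12, adjusted P = 0.0418). The groups did not overlap, but the call in sPre-B cells was lost with median-ratio scaling (adjusted P = 0.062) and in DESeq2 (0.0543). It was also lost without either cKO early LPre-B library or without any 1 of the 4 sPre-B libraries, with adjusted P of 0.0579 to 0.269.

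Slc7a1, the arginine and lysine carrier, had 111 and 98.5 CPM in Ctrl and 211 and 196 CPM in cKO early LPre-B cells. In sPre-B cells it had 18.3 and 14.1 CPM in Ctrl and 62.7 and 55.1 CPM in cKO. The rise was 1.94-fold in early LPre-B cells (Log2FC 0.96 ± 0.13, adjusted P = 0.00113) and 3.64-fold in sPre-B cells (1.86 ± 0.14, adjusted P = 5.23e-05), with no overlap between the genotypes.

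The largest factors belonged to 2 genes that were low in Ctrl cells. Slc1a4 had 2.38 and 1.59 CPM in Ctrl and 28.3 and 25.4 CPM in cKO early LPre-B cells. In sPre-B cells it had 1.62 and 1.09 CPM in Ctrl and 15.8 and 14.1 CPM in cKO. These were rises of 13.5-fold (Log2FC 3.75 ± 0.24, adjusted P = 4.76e-05) and 11.01-fold (3.45 ± 0.25, adjusted P = 4.76e-05), resting on 77 to 329 counts in Ctrl libraries and 1453 to 3305 in cKO libraries. The glycine carrier gene Slc6a9 had 0.217 and 0.320 CPM (30 and 25 counts) in Ctrl and 4.997 and 5.488 CPM in cKO early LPre-B cells. In sPre-B cells Slc6a9 had 0.177 and 0.227 CPM (15 and 16 counts) in Ctrl and 3.06 and 3.92 CPM in cKO. It rose by 19.5-fold (Log2FC 4.31 ± 0.29, adjusted P = 5.38e-05) and 17.3-fold (4.11 ± 0.30, adjusted P = 5.04e-05). Slc1a4 and Slc6a9 were still far below Slc1a5 per kilobase in cKO cells, at 6.84 and 1.43 CPM per kb against 173 in early LPre-B cells.

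The highly expressed carriers moved little. Slc38a2 had 418 and 452 CPM in Ctrl and 488 and 536 CPM in cKO early LPre-B cells (Log2FC 0.24 ± 0.12, adjusted P = 0.184), where both cKO libraries were above both Ctrl libraries without passing the test. In sPre-B cells it had 337 and 377 CPM in Ctrl and 444 and 511 CPM in cKO, a rise of 1.34-fold (0.42 ± 0.12, adjusted P = 0.0297). That call was lost without either Ctrl sPre-B library or without cKO sPre-B replicate 2, with adjusted P of 0.0539 to 0.173. Its paralog Slc38a1 had 320 and 334 CPM in Ctrl and 265 and 262 CPM in cKO early LPre-B cells, with both cKO libraries lower (−0.31 ± 0.11, adjusted P = 0.0637). That difference was called in DESeq2 (adjusted P = 0.0249) and with the replicate block (0.0385). In sPre-B cells Slc38a1 overlapped between the genotypes, at 447 and 511 CPM in Ctrl and 417 and 460 CPM in cKO (−0.13 ± 0.11, adjusted P = 0.417).

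Slc1a5 and Slc7a11 were not called at either stage. Slc1a5 had 497 and 594 CPM in Ctrl and 491 and 468 CPM in cKO early LPre-B cells (Log2FC −0.19 ± 0.15, adjusted P = 0.378). In sPre-B cells it had 861 and 1072 CPM in Ctrl and 810 and 798 CPM in cKO (−0.27 ± 0.15, adjusted P = 0.203). Both cKO libraries of Slc1a5 were a little below both Ctrl libraries at each stage, by less than the test could separate. Slc7a11 had 1.01 and 0.692 CPM in Ctrl and 0.854 and 0.608 CPM in cKO early LPre-B cells (−0.23 ± 0.39, adjusted P = 0.693). In sPre-B cells it had 0.225 and 0.270 CPM in Ctrl and 0.152 and 0.256 CPM in cKO (−0.26 ± 0.44, adjusted P = 0.695). With 14 to 140 counts a library its standard errors were the widest of the 9, and its sign in both comparisons turned when 1 library was left out. So of the 2 genes whose promoters hold CARE letters above, Slc1a4 rose more than 10-fold and Slc7a11, with 2 matches, did not pass the test.

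**Figure D2:**
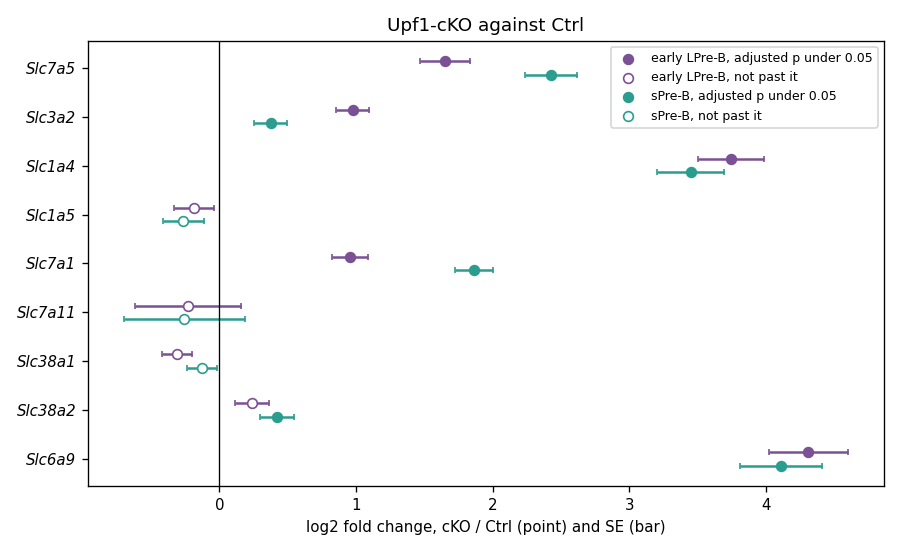
Log2FC of cKO against Ctrl for the 9 genes in early LPre-B (purple) and sPre-B cells (green), with bars of 1 standard error; filled points passed an adjusted p of 0.05 and open points did not. Slc6a9 and Slc1a4 lie above 3 at both stages, Slc7a5 and Slc7a1 lie further from 0 in sPre-B cells, and Slc1a5, Slc38a1 and Slc7a11 lie just below 0.

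The second question was how the 9 genes changed as cells went from the dividing early LPre-B to the resting sPre-B stage. In Ctrl cells 4 of the 9 fell, beside 31.1% of all tested genes, and 2 rose, beside 29.1%. In cKO cells 5 fell, beside 31.1%, and 2 rose, beside 31.6%. The medians of the 9 were −0.555 and −0.848, as against 0.02 and 0.048 over all genes tested. The stage comparisons use the same 8 libraries as those between the genotypes, whose per-library values are given above.

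In Ctrl cells Slc7a5 fell by 2.84 on the log2 scale (SE 0.19, adjusted P = 6.004e-06) and Slc7a1 fell by 2.69 (SE 0.14, adjusted P = 1.88e-06), to 13.9% and 15.4% of their early LPre-B means. Slc7a11 fell by 1.79 (SE 0.42, adjusted P = 0.00587), a call lost without Ctrl early LPre-B replicate 1 (adjusted P = 0.0511). Slc3a2 fell by 0.89 (SE 0.12, adjusted P = 0.000273), so the heavy chain gene retained 54.0% of its level while its partner Slc7a5 retained far less. Slc1a4 (Log2FC −0.56 ± 0.24, adjusted P = 0.0727), Slc38a2 (−0.29 ± 0.12, adjusted P = 0.0753) and Slc6a9 (−0.39 ± 0.32, adjusted P = 0.344) did not pass the test. Slc1a4 was called lower with no expression filter (adjusted P = 0.035), and Slc1a4 and Slc38a2 were both called lower with the replicate block (0.0226 and 0.0249), which takes the members that fell from 4 to 6. The glutamine carriers Slc1a5 and Slc38a1 went the other way. Slc1a5 rose 1.77-fold (0.82 ± 0.15, adjusted P = 0.00144) and Slc38a1 rose 1.46-fold (0.55 ± 0.11, adjusted P = 0.00256), with no overlap between the stages.

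In cKO cells the same 4 genes were called lower and Slc1a4 was called as well. Slc7a5 fell by 2.07 (SE 0.19, adjusted P = 2.48e-05), Slc7a1 by 1.79 (SE 0.14, adjusted P = 1.002e-05), Slc3a2 by 1.49 (SE 0.12, adjusted P = 1.57e-05) and Slc7a11 by 1.82 (SE 0.42, adjusted P = 0.00494). Slc1a4 fell by 0.85 (SE 0.22, adjusted P = 0.00799) but remained above its Ctrl levels in every cKO library. Slc1a5 rose 1.68-fold (0.75 ± 0.15, adjusted P = 0.00239) and Slc38a1 rose 1.67-fold (0.74 ± 0.11, adjusted P = 0.000481). Slc38a2 (−0.10 ± 0.12, adjusted P = 0.502) and Slc6a9 (−0.59 ± 0.24, adjusted P = 0.0592) were not called. Slc6a9 was close to the threshold and was called lower in DESeq2 (adjusted P = 0.04997), in a fit of only the 4 libraries compared (0.0302) and with the replicate block (0.0278). Without either Ctrl early LPre-B library its Log2FC was −0.60.

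**Figure D3:**
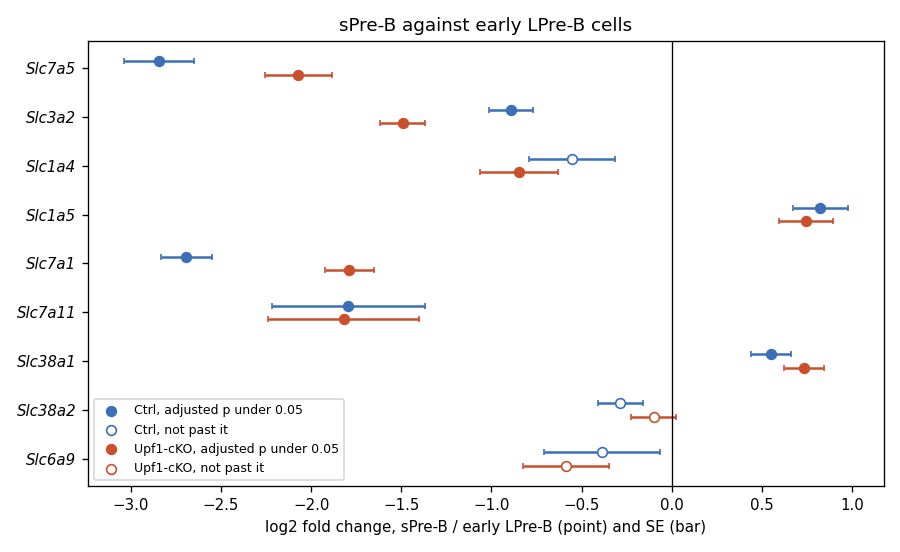
Log2FC of sPre-B against early LPre-B cells for the 9 genes in Ctrl (blue) and cKO cells (orange), with bars of 1 standard error; filled points passed an adjusted p of 0.05 and open points did not. Slc7a5, Slc7a1, Slc7a11 and Slc3a2 lie left of 0 and Slc1a5 and Slc38a1 right of 0 in both genotypes.

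The 2 effects together set the level that each gene had in cKO sPre-B cells. Slc7a5 there had 74.9% of its mean in Ctrl early LPre-B cells, Slc3a2 70.0% and Slc7a1 56.2%, so these genes were higher than in resting Ctrl cells and lower than in dividing Ctrl cells. Slc1a4 had 752% and Slc6a9 1298% of that mean. Slc1a5 had 147%, Slc38a1 134% and Slc38a2 110%, and Slc7a11 had 23.9%. Whether the difference between the genotypes itself differed between the stages was tested as an interaction, coded as sPre-B minus early LPre-B. Of the 9 genes 1 was called higher, Slc7a1 (0.91 ± 0.19, adjusted P = 0.0356), beside 2.64% of all tested genes. By edgeR's quasi-likelihood test with the expression filter and no replicate block 0 were called lower, beside 1.6%. At an unadjusted p under 0.05, in DESeq2 (adjusted P = 0.0213), in edgeR's likelihood-ratio test (0.0464), with no expression filter (0.0367) and with the replicate block (0.0405), 1 was lower (Slc3a2). The rise of Slc7a1 was thus larger in sPre-B than in early LPre-B cells, but the call was lost on leaving out any single library other than Ctrl sPre-B replicate 1, with adjusted P of 0.0534 to 0.120. Slc7a5 differed in the same direction (0.77 ± 0.26, adjusted P = 0.133) and Slc3a2 in the opposite one (−0.60 ± 0.17, adjusted P = 0.0876). Neither passed here, but both did with no expression filter (adjusted P = 0.0286 for Slc7a5 and 0.0367 for Slc3a2) and with a replicate block within each genotype (0.00668 and 0.0147), which takes libraries of the same genotype and number as 1 animal, although the labels do not name the animals.

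Among 47 other amino acid transporter genes in the count table, 26 passed the filter. In early LPre-B cells 5 of the 26 rose and 2 fell between the genotypes, beside 14.5% and 16.9% of all tested genes, with a median Log2FC of 0.14. In sPre-B cells 6 rose and 3 fell, beside 19.8% and 14.9%, with a median of −0.008. Slc7a3, which encodes CAT3, a relative of Slc7a1's product, had 0.137 and 0.154 CPM in Ctrl and 2.18 and 2.29 CPM in cKO early LPre-B cells (Log2FC 3.94, adjusted P = 8.77e-05). In sPre-B cells Slc7a3 had 4 and 5 counts in Ctrl and 78 and 88 counts in cKO (3.71, adjusted P = 0.000182). Slc38a7, a lysosomal glutamine carrier, rose by 1.30 and 1.16 (adjusted P = 0.00136 and 0.00185), and Slc38a6 rose by 0.86 at both stages (adjusted P = 0.00265 and 0.00218). Slc6a19, a carrier of neutral amino acids, fell in sPre-B cells (−3.71, adjusted P = 0.00789), from 234 and 136 counts in Ctrl to 2 and 40 counts in cKO.

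Between the stages, 13 of these 26 genes rose, 4 fell and 9 were not called in Ctrl cells, beside 29.1% higher and 31.1% lower over all tested genes, with a median Log2FC of 0.764. In cKO cells 11 rose, 4 fell and 11 were not called, beside 31.6% and 31.1%, with a median of 0.488. Among those that rose in Ctrl cells were 2 genes of the lysosomal membrane, Slc36a1 (1.17, adjusted P = 4.08e-05) and Slc66a1 (1.62, adjusted P = 2.85e-05), and Slc36a4, a relative of Slc36a1 (2.13, adjusted P = 1.37e-06). Slc43a2, a carrier of large neutral amino acids that needs no heavy chain, went from 83.8 and 96.5 CPM in early LPre-B to 285 and 297 CPM in sPre-B cells (1.69, adjusted P = 4.28e-06). Slc7a6, another partner of CD98, fell in Ctrl (−0.39, adjusted P = 0.0148) and in cKO cells (−1.30, adjusted P = 2.23e-05). It rose in cKO early LPre-B cells (0.59, adjusted P = 0.00505), and its interaction was called (−0.91, adjusted P = 0.0225).

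**Figure D4:**
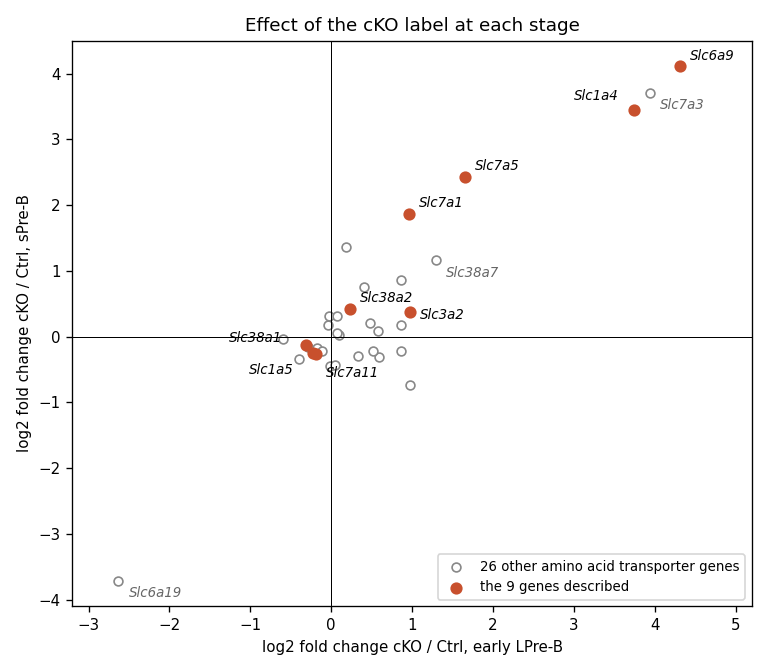
Log2FC of cKO against Ctrl in early LPre-B (x axis) and sPre-B cells (y axis) for the 9 genes (filled) and the 26 other amino acid transporter genes tested (open); each point is a gene and the 2 axes use different libraries. Slc6a9, Slc1a4 and Slc7a3 lie above 3 on both axes, and Slc6a19 lies below −2 on both.

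ATF4 and the genes linked with it were followed as context. Atf4 had 135 and 118 CPM in Ctrl and 461 and 403 CPM in cKO early LPre-B cells (Log2FC 1.77 ± 0.12, adjusted P = 5.22e-05). In sPre-B cells Atf4 had 129 and 139 CPM in Ctrl and 355 and 380 CPM in cKO (1.45 ± 0.12, adjusted P = 7.41e-05). Unlike Slc7a5 and Slc7a1, Atf4 was not called between the stages, in Ctrl (0.09, adjusted P = 0.537) or in cKO cells (−0.23, adjusted P = 0.105). Of 18 tested genes of the integrated stress response, 9 rose and 3 fell in early LPre-B cells, beside 14.5% and 16.9% of all tested genes, and 10 rose and 2 fell in sPre-B cells, beside 19.8% and 14.9%. Their medians were 0.601 and 0.802. Chac1, a glutathione-degrading enzyme, rose by 4.29 and 4.09 (adjusted P = 6.18e-05 and 5.64e-05). Ddit3, which encodes CHOP, rose by 2.43 and 2.05 (adjusted P = 2.09e-05 and 3.56e-05), Trib3 by 1.51 and 2.86 (adjusted P = 0.0062 and 0.000351) and Sesn2 by 1.15 and 1.24 (adjusted P = 0.000524 and 0.000306). Eif2ak3, the gene of the eIF2α kinase PERK, fell by 1.11 and 0.92 on the log2 scale (adjusted P = 0.000134 and 0.00026).

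Slc7a11 was also set beside 16 genes of glutathione metabolism and the NRF2 response. Of these 2 rose and 5 fell at each stage, beside 14.5% and 16.9% of all tested genes in early LPre-B and 19.8% and 14.9% in sPre-B cells, with medians of −0.264 and −0.288. Gclc, the catalytic subunit of the enzyme that limits glutathione synthesis, fell by 0.96 and 1.07 (adjusted P = 0.0104 and 0.00584), while Gss, which acts after it, rose by 0.91 and 1.20 (adjusted P = 0.00474 and 0.00119). Its modifier Gclm differed by 0.01 and −0.01 and was not called. Nqo1 rose by 1.73 and 2.91 (adjusted P = 0.00853 and 0.000929), resting on 7 to 27 counts in Ctrl libraries. Between the stages in Ctrl cells 9 of the 16 fell, in the direction of Slc7a11, and 1 rose, beside 31.1% and 29.1% of all tested genes.

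Of 30 genes that link amino acids to mTORC1, 8 rose and 6 fell in cKO early LPre-B cells, beside 14.5% and 16.9% of all tested genes, with a median of −0.086. In cKO sPre-B cells 7 rose and 2 fell, beside 19.8% and 14.9%, with a median of −0.001. Mlst8, a subunit of the complex, rose by 1.002 in early LPre-B cells (adjusted P = 0.000146). Nprl2, a subunit of the GATOR1 complex that restrains mTORC1, rose by 0.75 and 0.72 (adjusted P = 0.00161 and 0.00168). Sesn3, which like Sesn2 encodes a sestrin, fell by 1.15 and 0.75 (adjusted P = 0.000172 and 0.00113), opposite to Sesn2.

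The stage fall of Slc7a5 and Slc7a1 was set beside that of proliferation genes. All 28 proliferation genes fell in Ctrl cells between the stages (median Log2FC −3.18), and 27 of 28 fell in cKO cells (−2.17), beside 31.1% of all tested genes in each genotype. Myc fell by 4.68 in Ctrl (adjusted P = 1.37e-06) and by 3.98 in cKO cells (adjusted P = 2.23e-06), and Mki67 by 3.12 and 2.08 (adjusted P = 4.01e-05 and 0.000321). Between the genotypes Myc rose by 0.86 in early LPre-B (adjusted P = 0.00924) and by 1.55 in sPre-B cells (adjusted P = 0.000852). In early LPre-B cells 2 of the 28 rose and 5 fell, beside 14.5% and 16.9% of all tested genes. With DESeq2 or with no expression filter 11 fell. In sPre-B cells 12 rose, beside 19.8%. The summed level of the list was 16610 and 17330 CPM in Ctrl and 12490 and 12590 CPM in cKO early LPre-B cells, and 1598 to 2524 CPM in Ctrl and 2813 to 3007 CPM in cKO sPre-B cells. Thus where Slc7a5 and Slc7a1 rose in early LPre-B cells, the sum of the proliferation genes was lower in cKO, and in sPre-B cells it was higher. The part of proliferation in the transporter levels was not tested. Of 14 genes for the uptake of other nutrients, 8 fell and 1 rose in Ctrl cells between the stages, beside 31.1% and 29.1% of all tested genes. Of these genes 5 rose in cKO early LPre-B cells, beside 14.5% of all tested genes. In cKO sPre-B cells 3 rose and 3 fell, near the shares of 19.8% and 14.9% over all tested genes. The glucose carrier gene Slc2a1 fell by 0.83 in cKO sPre-B cells (adjusted P = 0.00192), and the transferrin receptor gene Tfrc was not called between the genotypes (Log2FC −0.25 and 0.20).

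Markers of other cells differed between the groups. The sum of 9 erythroid markers was 21.8 to 27.1 CPM in Ctrl and 11.1 to 17.7 CPM in cKO early LPre-B cells, and 34.6 to 40.3 against 16.3 to 26.1 CPM in sPre-B cells. The lower sums were mostly those of the globin genes, of which Hbb-bs was called, while Klf1 (Log2FC 0.39 and 0.32) and Alas2 (−0.03 and 0.34) were not called. Slc6a9 is also used by erythroid cells. Myeloid markers summed to 111 to 135 CPM in Ctrl and 50.6 to 55.9 CPM in cKO early LPre-B cells, and to 306 to 357 and 212 to 245 CPM in sPre-B cells. Plasma cell markers, several of which pre-B cells also express, summed to 272 to 323 CPM in Ctrl and 211 to 228 CPM in cKO cells, and T and NK cell markers to 1.82 to 4.75 CPM, with Gzma at 0 counts in 7 of 8 libraries. Between the genotypes 1 erythroid marker, Hbb-bs, fell at both stages, and 2 myeloid markers fell in early LPre-B and 1 in sPre-B cells. Over all tested genes 16.9% fell and 14.5% rose in early LPre-B cells, and 14.9% fell and 19.8% rose in sPre-B cells. Of the plasma cell markers 1 rose and 2 fell in early LPre-B cells and 2 fell in sPre-B cells, and of 6 T and NK cell markers tested 1 fell in early LPre-B cells. The part of these cells in the transporter levels was not tested.

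Genes with the most similar profiles were sought among 9609 genes with a mean of at least 10 CPM, by Pearson's r of log2 CPM over the 8 libraries. These libraries fall into 4 groups, so a high r says little more than that the group means are ordered alike. Slc7a5 was closest to Rrp12, Enoph1 and Eprs (r = 0.996 to 0.997), Slc7a1 to Alg8, Usp39 and Ctc1 (0.996 to 0.997) and Slc3a2 to Hyou1, Tmem138 and Dlst (0.989 to 0.993). Slc1a4 was closest to Tmem222, Parl and the host gene Snhg15 (0.995 to 0.998), and Slc6a9 to Mto1, the host gene Snhg16 and Gm16973 (0.997 to 0.998). Slc38a1 was closest to Atraid, Nrbp1 and Zfp687 (0.995 to 0.996), Slc38a2 to Senp1, Ndufs1 and Ahcyl1 (0.969 to 0.981), and Slc7a11 to Snrpc, Cyc1 and Psmc4 (0.986 to 0.989). For Slc1a5 the named gene was Leng8 (r = 0.996), and the other 2 entries had no symbol in the tables used.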

How the data were processed

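Total RNA was counted in 8 libraries, 2 for each of 4 groups. Per the study's methods, reads were trimmed (Trim Galore) and aligned with HISAT2, paired-end and ignoring strand, to mm10, and the authors deposited raw counts per gene from featureCounts. Of 27179 Entrez identifiers, 25275 were named from RefSeq GRCm38.p6. All libraries entered 1 edgeR 4.0.16 model (R 4.3.3) with TMM factors (0.862 to 1.09) and a mean per group. The expression filter by group left 17700 genes (common biological coefficient of variation 0.174). The quasi-likelihood test, two-sided, with Benjamini-Hochberg adjustment, was run on 5 contrasts, and the script was tested on simulated data. Alternatives were median-ratio and upper-quartile factors, no expression filter, DESeq2 1.42.0, the likelihood-ratio test, replicate blocks, fewer libraries and removal of 261 immunoglobulin genes. Leaving out both male libraries was added after seeing the data, and it left 1 library in each Ctrl group. The members, lists and tests were chosen with earlier results of these data known. Named were the 9 genes, 15 context genes, up to 4 called genes per list and comparison (lowest adjusted p, 50 or more counts in both libraries of the higher group) and the 3 nearest profiles. Not every gene under this rule is reported. Lengths and transcripts were taken from GENCODE M21. Floors cover counting error only.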

Additional observations from a re-analysis of the deposited data

Results flagged for a closer look

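The difference between cKO and Ctrl was larger in sPre-B than in early LPre-B cells for Slc7a1, by 0.91 on the log2 scale in the interaction test. The call was lost in 7 of 8 fits without a single library, where adjusted p by edgeR was 0.0534 to 0.120. Slc7a5 (0.77, adjusted P = 0.133) and Slc3a2 (−0.60, adjusted P = 0.0876) differed in opposite directions, and neither passed the test in that fit, while both passed with no expression filter and with the replicate block within each genotype. No group had enough libraries for a test of single outlying libraries.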

How the results depend on the processing

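Over all members, comparisons and alternatives, 729 values kept their direction and side of the threshold, 24 came to pass it, 21 ceased to pass it and 9 turned sign; the cause was not tested. With DESeq2 and with the replicate block, 1 member was lower in cKO early LPre-B cells (Slc38a1, adjusted p 0.0249 and 0.0385). For the interaction, 2 members were called higher with no expression filter and with the replicate block within each genotype (Slc7a5 with Slc7a1, adjusted p of Slc7a5 0.0286 and 0.00668), 0 without both male libraries (Slc7a1, adjusted p 0.146), and 0 to 2 in the fits that left out a library. In that comparison 1 member, Slc3a2, was called lower with no filter, DESeq2, the likelihood-ratio test, the replicate block and the block within genotype. Between the stages, 6 members were called lower in each genotype with the replicate block and with the block within genotype, against 4 in Ctrl and 5 in cKO cells without it. The members gained were Slc1a4 (adjusted p 0.0226 and 0.00651) and Slc38a2 (0.0249 and 0.00946) in Ctrl and Slc6a9 (0.0278 and 0.0185) in cKO cells, the last also without both male libraries (0.0469). Among the lists, 11 proliferation genes fell in cKO early LPre-B cells with no filter or DESeq2, 2 glutathione genes rose between the stages in Ctrl cells with no filter or DESeq2, and 0 nutrient genes did so with the replicate block. The values that turned sign on leaving out a library were Slc7a11 in early LPre-B (range −0.49 to 0.12) and sPre-B cells (−0.70 to 0.055), and, in the interaction, Slc7a11 (−0.47 to 0.28, and 0.26 without both male libraries), Slc1a5 (−0.31 to 0.0079) and Slc6a9 (−0.56 to 0.0109). None of these was called. Without any 1 library, 5 members were called higher in early LPre-B cells and 4 to 6 in sPre-B cells. Upper-quartile scaling moved the median of all genes by 0.10 between the stages in Ctrl cells and changed no member's call there. Same-numbered libraries deviated together within Ctrl (r = 0.453) and cKO (0.316) and less between the genotypes (0.137 and 0.058), but 2 pairs do not show that the numbers mark animals. Only 2 libraries a group and the low counts of Slc7a11 limit what could be seen.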
